A study of Mus musculus with 9 samples.

Results

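The nuclear genes for subunits of the mitochondrial respiratory chain were followed in mouse liver. Members were chosen by gene symbol alone, taking the Nduf, Sdh, Uqcr, Cox and Atp5 families that code for subunits of complexes I to V and leaving out hyphenated symbols of gene copies. This gave 84 of the 51912 genes listed, with 37 in complex I, 4 in complex II, 8 in complex III, 18 in complex IV and 17 in complex V. All 84 are annotated as nuclear protein-coding genes, spread over 19 chromosomes. Atp5s and Atp5sl carry the Atp5 prefix and were kept for it, although Atp5s codes for a coupling factor of ATP synthase and Atp5sl (now Dmac2) for a protein of complex I assembly. Ndufa4 was counted with complex I by its symbol, although its product is now often placed in complex IV. Ndufa4l2 has a symbol outside the rule and was at most at 0.138 TPM. Cyc1, which codes for cytochrome c1 of complex III, also has a symbol outside the rule and is not among the 8 genes of that complex.

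Mice were given an antisense oligonucleotide (ASO), a short modified DNA strand that leads RNase H to cut its target RNA. The livers came from 5 mice on an ASO against the apoC-III transcript (treated livers) and 4 mice on a control ASO (controls). Both were given at 50 mg/kg/week for 8 weeks. The study asked how lowering apoC-III affects lipid levels and the clearance of triglyceride-rich lipoproteins in mice without apoE. Gene expression in liver was one of its measurements. All 9 mice were Apoe-/-Ndst1 f/f Alb-Cre+ on a C57Bl/6 background, so the controls carry both inactivated genes too. Cre is driven by the albumin promoter and inactivates Ndst1, a heparan sulfate sulfotransferase, in the liver, while apoE is missing from the whole animal. The mice were fasted, and their age, sex and diet were not given beside these samples. Replicates were separate mice, and the labels name no batch.

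The respiratory chain sits in the inner mitochondrial membrane. Complex I and complex II take electrons from NADH and succinate, ubiquinone carries them to complex III, cytochrome c carries them on to complex IV, and complex IV passes them to oxygen. Complexes I, III and IV pump protons, and complex V, the ATP synthase, uses the returning protons to make ATP. Most subunits are made in the cytosol from nuclear genes and imported, while a few are coded by mitochondrial DNA, and in liver the chain burns the electrons set free by fatty acid oxidation during fasting.

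Promoter sequences are shown because subunit genes are classic targets of NRF1 and GABP, factors that bind near the start sites of many mitochondrial genes. Of the 5 shown, Sdha, Sdhd and Cox6a1 hold 2 motif matches each, and Ndufa4 and Cox7a1 recur in the comparisons below. The 5 therefore do not stand for the whole list. Windows from RefSeq (GRCm38.p6) running from 250 bases before to 50 bases after a start were available for 70 of the 84 genes, 3 of them through a newer symbol. Stretches end at the base before the first start that RefSeq or GENCODE M21 gives, and run 5′ to 3′ on the strand of the gene. Capitals mark matches to the NRF1 motif, GCGCA and GCGC with any 1 base between them, or to CCGGAAG, the core of the GABP motif, read on either strand, so that a GABP match on the opposite strand appears as CTTCCGG. Sdha lies at chr13:74350281-74350430 on the minus strand, Sdhd at chr9:50603850-50603999 on the minus strand and Cox6a1 at chr5:115348982-115349140 on the minus strand. Ndufa4 lies at chr6:11907498-11907647 on the minus strand and Cox7a1 at chr7:30183994-30184143 on the plus strand, and neither stretch holds a match.
Sdha: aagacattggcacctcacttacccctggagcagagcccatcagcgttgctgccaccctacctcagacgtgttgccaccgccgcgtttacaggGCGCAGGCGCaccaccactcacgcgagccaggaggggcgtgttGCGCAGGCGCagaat
Sdhd: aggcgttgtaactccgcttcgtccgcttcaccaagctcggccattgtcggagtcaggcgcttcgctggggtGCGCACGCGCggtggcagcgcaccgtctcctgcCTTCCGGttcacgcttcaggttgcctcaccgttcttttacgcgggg
Cox6a1: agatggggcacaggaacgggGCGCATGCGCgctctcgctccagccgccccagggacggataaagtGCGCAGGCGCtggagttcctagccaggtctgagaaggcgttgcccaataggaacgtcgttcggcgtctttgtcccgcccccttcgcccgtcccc
Ndufa4: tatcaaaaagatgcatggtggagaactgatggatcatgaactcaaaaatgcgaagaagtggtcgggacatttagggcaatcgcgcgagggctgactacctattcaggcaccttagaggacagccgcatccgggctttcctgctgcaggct
Cox7a1: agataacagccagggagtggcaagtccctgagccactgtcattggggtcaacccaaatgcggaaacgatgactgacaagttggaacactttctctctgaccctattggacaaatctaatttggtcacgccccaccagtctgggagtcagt

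In the whole windows, the NRF1 motif was found in 17 of the 70 subunit genes (24.3%). It was found in 11.5% of the 9282 tested genes with a window and in 5.19% of all 27025 genes with one. The GABP core was found in 16 subunit genes (22.9%), against 20.1% of tested genes and 9.93% of all genes. A motif of the factor YY1, AAGATGGCG, was found in 8 subunit genes (11.4%), against 3.70% and 1.64%. A gene was counted if any of its windows held the motif. The motifs were in 35 of the 70 genes in all, and 35 genes held none of them. Median GC content was 57.8% in the subunit genes and 60.3% in the tested genes, which are the nearer comparison for GC-rich letters such as these. A match describes letters only and was not tested as a binding site.

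The values deposited were TPM (transcripts per 1000000, a length-corrected share of a library), which keep no sequencing depth, so no counting error can be given. The noncoding RNAs of the samples took most of the TPM, and the nuclear protein-coding share was 3.04% to 5.31% in treated livers and 1.94% to 8.64% in controls. For that reason levels are given here for nuclear protein-coding genes rescaled to 1000000 per liver and divided by median-of-ratios factors, which set the typical gene equal between livers. Control replicate 4 stood apart before any result, with the lowest nuclear protein-coding share (1.94%) and a factor of 0.496 against 0.930 to 1.44 in the other 8 livers. It had the highest or the lowest value of all 9 livers in 21.2% and 21.9% of all tested genes, where the other livers ranged from 6.34% to 11.7% and from 7.11% to 11.3%. Counts and medians of the subunit genes are therefore also given without it. The target of the ASO, Apoc3, was at 23.5 ± 8.12 TPM (SD, n = 5) in treated livers and 174 ± 96.1 TPM (SD, n = 4) in controls, with every treated liver below every control. Hepatocyte markers were abundant in all livers, with a summed level of 20072 to 47894 for 6 listed markers in the apoC-III ASO group and 27015 to 33755 in the control group.

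Subunit transcripts were a small share of the protein-coding RNA, with overlapping ranges in the groups. The 84 genes together took 0.877% to 1.66% of the nuclear protein-coding TPM in treated livers and 0.850% to 1.24% in controls. Of the 84, 78 reached a mean level of 1 and were tested, and the 6 below it were all tissue isoforms of complex IV. The level, which is corrected for transcript length, ran over a 308-fold range between subunit genes, from 2.38 for Cox7a1 to 735 for Ndufa4 as means over the 9 livers. After Ndufa4, the highest means were those of the ATP synthase subunit genes Atp5h (562) and Atp5j (511) and of Cox4i1 (497), the main subunit 4 gene of complex IV. The 10 most abundant subunit genes, which also include Atp5k, Uqcr11, Atp5b, Uqcrq, Cox6b1 and Cox6c, made 40.2% to 47.7% of the summed level in each liver. They are drawn from complexes I, III, IV and V, and complex II has none among them.

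No subunit gene differed between the groups past the threshold in limma-trend on log2(level + 1), which asked for a change over 1.5-fold with a p under 0.05 after Benjamini-Hochberg adjustment. In that test 2 of 11968 genes were called (0.0167%), Apoc3 and the aminopeptidase gene Anpep, and 0 of the 78 subunit genes. The lowest adjusted p of a subunit gene was 0.762 in limma-trend, and 52 of the 78 fold changes lay within 1 standard error of 0 and 72 within 2, with a median standard error of 0.33 on the log2 scale. At an unadjusted p under 0.05, Ndufa4, Ndufb4, Ndufab1 and Atp5sl were lower, 4 of 78 (5.13%) against 2.57% of all genes tested. Cox7a1 alone was higher at that level, 1 of 78 (1.28%) against 3.0% of all genes tested. The groups did not overlap in the higher direction in Cox7a1 alone, where 0.919% of all genes tested had no overlap, and in the lower direction in 0 subunit genes, against 0.911%. Counts this close to the background say nothing particular about the subunit genes.

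**Figure D1:**
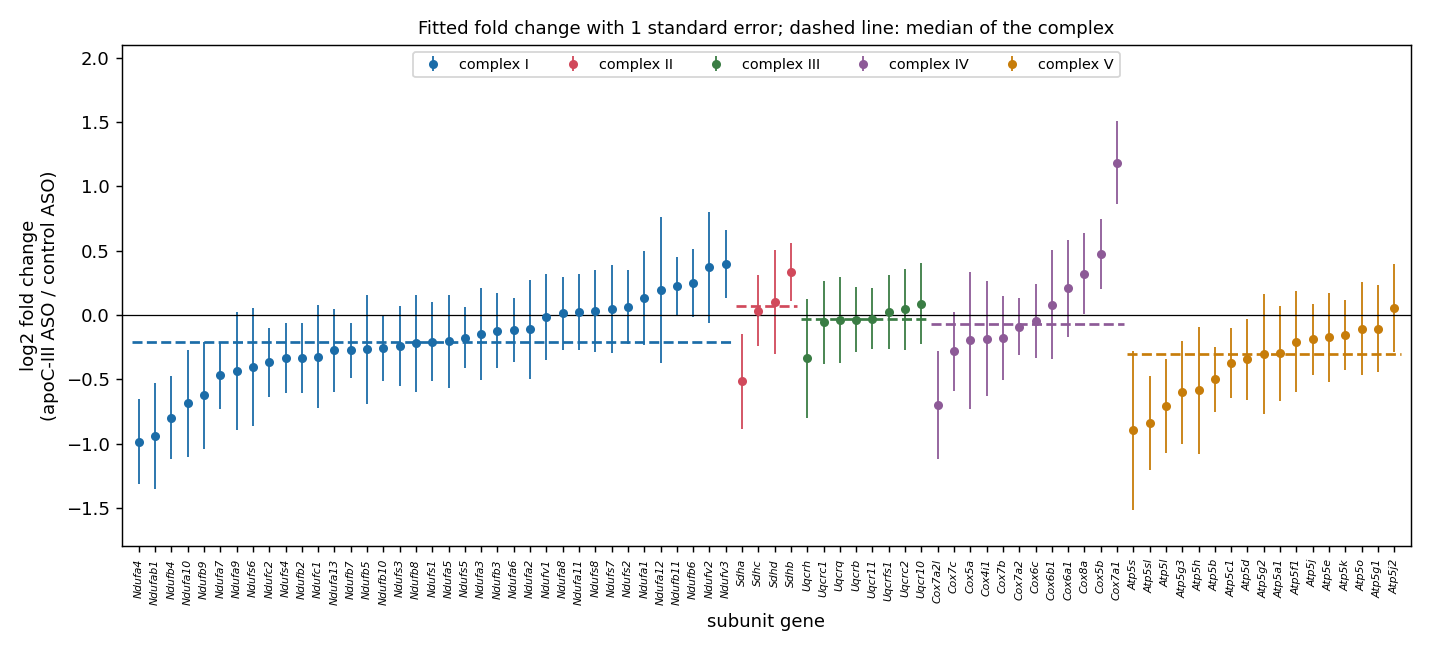
Fitted log2 fold change of the 78 tested subunit genes (y axis, apoC-III ASO over control ASO on the log2(level + 1) scale), ordered within each complex along the x axis, with bars of 1 standard error and a dashed line at the median of each complex. The points run from −0.99 for Ndufa4 to 1.18 for Cox7a1, and 0 of them passed the adjusted threshold.

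The fitted fold changes leaned to lower values in the apoC-III ASO group, but single livers decided how far. Below 0 were 55 of the 78 (70.5%), where 50.1% of all genes tested were below 0, and the median log2 fold change was −0.18 against −0.00127 for all genes tested. Without control replicate 4, 41 of the 78 were below 0 and the median was −0.03. Without apoC-III ASO replicate 2, 39 of the 78 were below 0 and the median was −0.0093. Without apoC-III ASO replicate 4, in contrast, 70 of the 78 were below 0 and the median was −0.29. In TPM as deposited, where the median of all genes tested was 0.11, 20 of 71 subunit genes with a mean of at least 1 were below 0 (28.2%), against 29.2% of all genes tested on that scale, and their median was 0.12. On that scale without control replicate 4, 67 of 73 were below 0, against 83.8% of all genes tested, with medians of −0.28 and −0.23. In bulk tissue, fewer cells of a type and less RNA per cell cannot be told apart.

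The subunit genes varied together from liver to liver within each group. After the mean of each group was taken out, the mean correlation between pairs of subunit genes was 0.51 over the 9 livers, against 0.000126 between pairs of all 11968 genes tested. It was 0.56 without control replicate 4 and 0.63 without that liver and apoC-III ASO replicate 1. By complex it was 0.63 in complex III, 0.54 in complex I, 0.52 in complex V, 0.38 in complex IV and 0.29 in complex II. The points of these correlations share libraries and scaling factors, so they are a description. Because the factors centre the genes tested in each liver, the value near 0 for all genes was largely set by the scaling. It does not show how far other groups of related genes vary together. ApoC-III ASO replicate 2 held the lowest value of all 9 livers in 45 of the 78 subunit genes and replicate 3 of that group in 19. Control replicate 4 held the highest value in 31, apoC-III ASO replicate 4 in 24 and apoC-III ASO replicate 1 in 15. The spread of a single gene was not unusual, with a median coefficient of variation over the 9 livers of 37.8% in the subunit genes and 34.8% in all genes tested.

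**Figure D2:**
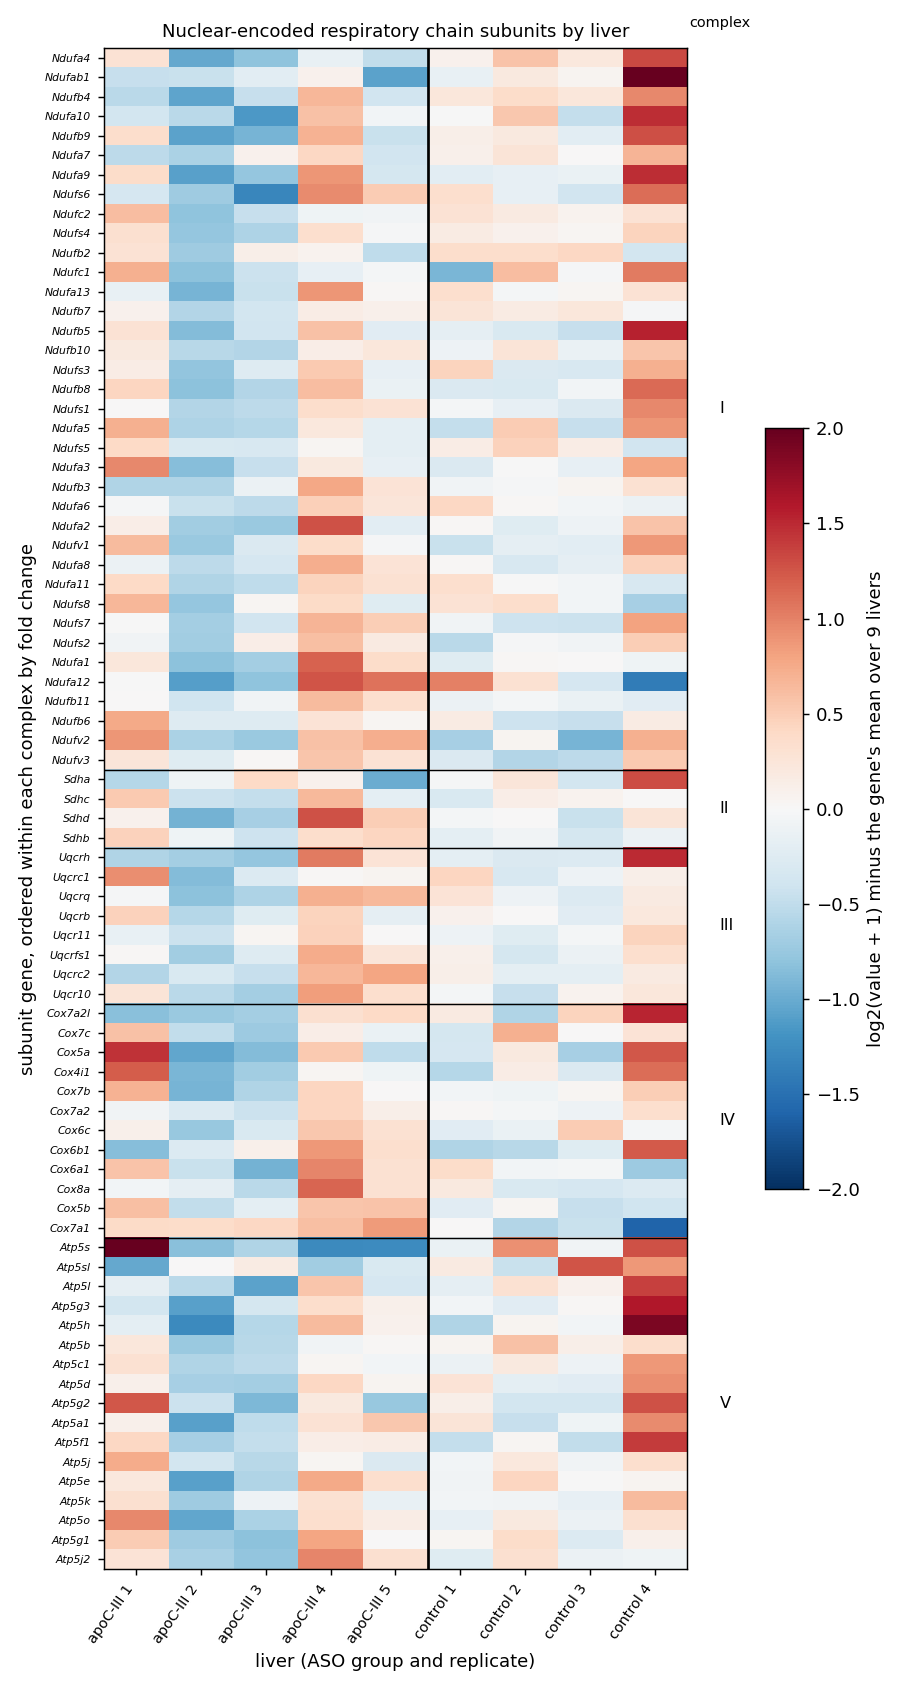
Level of each of the 78 tested subunit genes (rows, by complex) in each of the 9 livers (columns), as log2(level + 1) minus the mean of the gene over the livers, from blue (lower) to red (higher). Replicates 2 and 3 of the apoC-III ASO group are blue in most rows, and replicate 4 of each group is red in most rows.

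Summed over the 84 genes, the level was 12260, 6244, 7391, 13357 and 10435 in apoC-III ASO replicates 1 to 5. In control ASO replicates 1 to 4 it was 9533, 10684, 9400 and 17115. The means were 9937 ± 3060 (SD, n = 5) and 11683 ± 3667 (SD, n = 4), and 9872 in the controls without replicate 4. Treated livers thus lay on each side of control replicates 1 to 3, which were close to each other, and control replicate 4 was above every other liver.

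**Figure D3:**
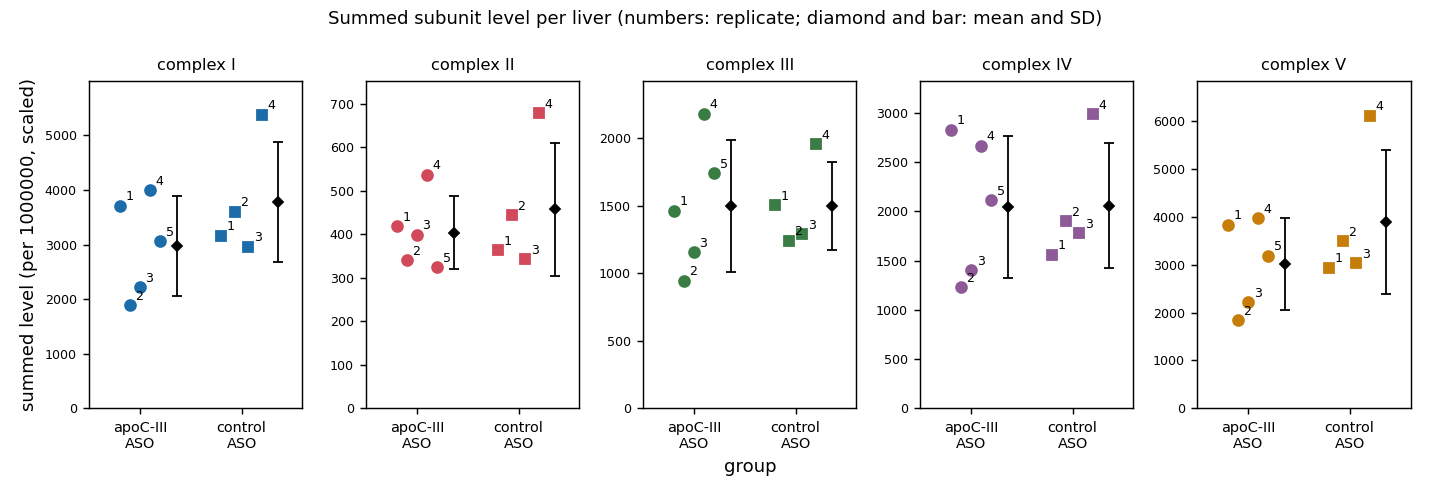
Summed level of the subunit genes of each complex (y axis, per 1000000 protein-coding, scaled) in each liver, with the replicate number beside each point and the mean and SD of each group as a diamond with a bar. The groups overlap in all 5 complexes, and control ASO replicate 4 is the highest point in complexes I, II, IV and V.

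Complex I, which oxidises NADH and is the largest complex, had 26 of its 37 genes below 0 and 11 above, with a median log2 fold change of −0.21 and 3 genes at an unadjusted p under 0.05. The split without control replicate 4 was 22 below and 15 above with a median of −0.05. Its summed level was 2977 ± 915 (SD, n = 5) against 3775 ± 1101 (SD, n = 4), and 3241 in the controls without replicate 4.

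Ndufa4 (chromosome 6 of GRCm38, 11900292 to 11907497, minus strand) had the lowest fold change of all subunit genes and the highest level. Its level was 798, 321, 374, 592 and 465 in apoC-III ASO replicates 1 to 5 and 693, 978, 759 and 1633 in control ASO replicates 1 to 4. All treated livers but replicate 1 were below every control, and replicate 1 was above control replicates 1 and 3. The log2 fold change was −0.99 (SE 0.33, unadjusted p = 0.0117, adjusted p = 0.860 in limma-trend with Benjamini-Hochberg adjustment). It was −0.73 without control replicate 4 (unadjusted p = 0.0381 in limma-trend) and −1.17 without apoC-III ASO replicate 1 (unadjusted p = 0.00393). In TPM as deposited, Ndufa4 averaged 28.0 ± 17.6 TPM (SD, n = 5) in treated mice and 43.3 ± 20.5 TPM (SD, n = 4) in the others. On that scale the fold change was −0.63 (unadjusted p = 0.373 in limma-trend).

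Ndufb4 (chromosome 16, 37647170 to 37654453, minus strand), an accessory subunit of the membrane arm, was at 11.9, 8.02, 12.6, 28.5 and 13.3 in treated livers and at 20.8, 23.1, 20.9 and 35.5 in controls. Replicate 4 of each group was the high one, and the other 4 treated livers were below every control. The log2 fold change was −0.80 (SE 0.32, unadjusted p = 0.0297, adjusted p = 0.876 in limma-trend), and the unadjusted p was 0.0886 without control replicate 4 and 0.0573 without apoC-III ASO replicate 1. Without apoC-III ASO replicate 4 the fold change was −1.05 (unadjusted p = 0.00178, adjusted p = 0.640 in limma-trend). Its values were low in TPM as deposited, 0.768 ± 0.431 TPM (SD, n = 5) and 1.14 ± 0.583 TPM (SD, n = 4).

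Ndufab1 (chromosome 7, 122085403 to 122101886, minus strand) codes for the mitochondrial acyl carrier protein, which is also used in fatty acid and lipoate synthesis in mitochondria. It was at 23.5, 23.6, 28.2, 34.8 and 15.0 in treated livers and at 29.3, 37.7, 34.0 and 132 in controls. Control replicate 4 was far above the rest, and control replicates 1 and 3 were below treated replicate 4. The log2 fold change was −0.94 (SE 0.41, unadjusted p = 0.0415, adjusted p = 0.876 in limma-trend), and −0.46 without control replicate 4 (unadjusted p = 0.115). A processed copy of the gene, Ndufab1-ps, took 44.2% of the summed TPM of gene and copy, so reads could be divided between them and the value is uncertain. With the copy added the unadjusted p of Ndufab1 was 0.154 in limma-trend. Of the 5 other listed copies of subunit genes, 4 were at 0 in all livers and Atp5l-ps1 was above 0 in 2 livers.

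The arm of complex I that oxidises NADH holds catalytic subunits. Ndufs1, an iron-sulfur subunit of this arm, was at 83.9, 55.4, 57.9, 107 and 102 in treated livers and at 81.2, 74.8, 68.4 and 163 in controls. Ndufv1, which binds NADH and the flavin, was at 185, 70.2, 96.5, 153 and 117 against 86.5, 105, 102 and 216. The log2 fold changes were −0.21 (SE 0.31) for Ndufs1 and −0.02 (SE 0.33) for Ndufv1, within 1 standard error of 0, and both turned positive without control replicate 4. Ndufv3, a small accessory subunit of the same arm, had the highest fold change of the complex. It was at 169, 121, 145, 210 and 175 in treated livers and at 116, 95.0, 98.9 and 205 in controls, so that every treated liver was above control replicates 1 to 3 and only control replicate 4 overlapped. Its log2 fold change was 0.40 (SE 0.27, unadjusted p = 0.165, adjusted p = 0.902 in limma-trend), and 0.64 without control replicate 4 (unadjusted p = 0.0153, adjusted p = 0.856). The other 31 complex I genes had fold changes between −0.69 (Ndufa10) and 0.37 (Ndufv2).

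Complex II, succinate dehydrogenase, is coded by nuclear genes alone and also belongs to the citric acid cycle. Its summed level was 404 ± 84.2 (SD, n = 5) in treated livers and 458 ± 153 (SD, n = 4) in controls, with 3 genes above 0, 1 below and a median log2 fold change of 0.07. Without control replicate 4 the control mean was 384 and the median fold change 0.12. Sdha, the flavoprotein that oxidises succinate, was at 127, 177, 249, 200 and 94.6 in treated livers and at 184, 223, 146 and 465 in controls. The treated livers lay on each side of control replicates 1 to 3, and the log2 fold change of −0.52 (SE 0.37) was −0.18 without control replicate 4. Sdhb, the iron-sulfur subunit, was at 88.6, 60.4, 47.8, 82.6 and 87.2 against 56.0, 61.3, 50.04 and 59.1. Treated replicates 1, 4 and 5 were above every control and replicate 3 below every control, with a log2 fold change of 0.33 (SE 0.23, unadjusted p = 0.172 in limma-trend). The membrane anchors Sdhc and Sdhd had fold changes of 0.03 and 0.10.

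Complex III, the cytochrome bc1 complex, had nearly the same summed level in the groups. The sums were 1499 ± 488 (SD, n = 5) against 1500 ± 327 (SD, n = 4), and 7 of the 8 fold changes lay between −0.06 and 0.09, with a median of −0.03. Uqcrc1, a core protein of the matrix side, was at 165, 47.0, 71.6, 88.1 and 89.5 in treated livers and at 117, 69.2, 80.2 and 93.5 in controls. Uqcrfs1, the Rieske iron-sulfur protein, was at 56.8, 34.1, 46.3, 93.9 and 65.9 against 59.98, 43.3, 51.1 and 70.6. In both genes the treated group held the highest and the lowest liver. Uqcr10, a small subunit, had the highest fold change of the complex, 0.09 (SE 0.32), with 111, 63.6, 57.6, 166 and 117 against 90.2, 67.4, 98.0 and 109. Uqcrh, the hinge protein that helps cytochrome c1 meet cytochrome c, had the lowest, −0.34 (SE 0.46). Its level was 84.7, 80.0, 74.8, 265 and 156 in treated livers and 113, 106, 107 and 366 in controls, replicate 4 being the high one in each group. Without control replicate 4 its fold change was 0.10, 7 of the 8 genes of the complex were above 0 with a median of 0.10, and the control mean of the sum was 1347.

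Complex IV, cytochrome c oxidase, had 5 tested genes above 0 and 7 below, with a median log2 fold change of −0.07 and a summed level of 2048 ± 722 (SD, n = 5) against 2058 ± 637 (SD, n = 4). Leaving out control replicate 4 put 8 of the 12 above 0, with a median of 0.08 and a control mean of the sum of 1747. Cox4i1 (chromosome 8, 120668222 to 120674207, plus strand) was at 1017, 232, 270, 451 and 414 in treated livers and at 293, 485, 359 and 952 in controls. Treated replicate 1 and control replicate 4 were the high ones, and the fold change was −0.19 (SE 0.45), or 0.15 without control replicate 4 and −0.51 without treated replicate 1. Cox5a, a matrix-side subunit, followed the same livers, with 203, 35.5, 40.1, 107 and 52.0 against 58.8, 84.8, 46.2 and 177 and a fold change of −0.20 (SE 0.53). Cox7a2l had the lowest fold change of the complex, −0.70 (SE 0.42, unadjusted p = 0.123 in limma-trend), or −0.32 without control replicate 4. It was at 15.4, 16.6, 17.4, 35.9 and 37.9 in treated livers and at 32.5, 18.5, 39.1 and 83.5 in controls, and treated replicates 1 to 3 were below every control.

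Cox7a1 (chromosome 7, 30184144 to 30186078, plus strand), the subunit 7a isoform of heart, skeletal muscle and brown fat, was the lowest tested subunit gene and the one whose groups did not overlap. Its level was 2.99, 2.95, 3.06, 3.61 and 4.52 in treated livers and 2.07, 1.02, 1.25 and 0 in controls. Every treated liver was above every control, and control replicate 4 was listed at 0. The log2 fold change was 1.18 (SE 0.32, unadjusted p = 0.00333, adjusted p = 0.762 in limma-trend), a scale on which the added 1 understates the change of so low a gene. Without control replicate 4 it was 0.87 (unadjusted p = 0.00552, adjusted p = 0.802 in limma-trend), and over all settings in which it was tested the adjusted p ran from 0.448 to 0.999. In TPM as deposited the level was 0.174 ± 0.0355 TPM (SD, n = 5) against 0.0741 ± 0.0686 TPM (SD, n = 4), where control replicate 1 (0.166 TPM) overlapped with the treated livers. The brown adipocyte markers Ucp1 and Cidea were at 0 in all 9 livers, 2 of the 4 markers of that list, and Dio2 was above 0 in 1 liver. The summed level of the 4 was 38.8 to 709 in treated livers and 25.03 to 237 in controls, nearly all of it from Elovl3, which liver also expresses, and its part in the values of Cox7a1 was not tested. The summed level of 5 muscle markers was 0.140 to 5.08 in treated livers and 0.700 to 7.16 in controls.

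**Figure D4:**
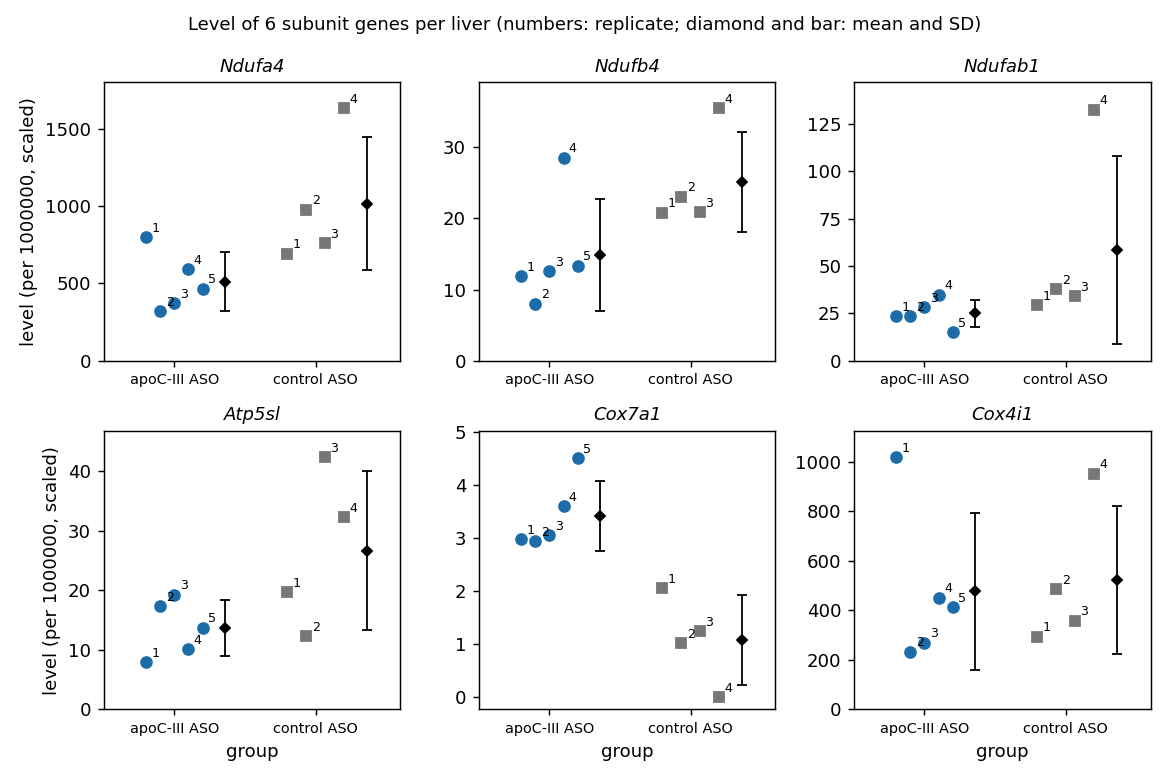
Level (y axis, per 1000000 protein-coding, scaled) of 6 subunit genes in each of the 5 apoC-III ASO livers (circles) and 4 control ASO livers (squares), with replicate numbers and the mean and SD of each group as a diamond with a bar. Only Cox7a1 has groups that do not overlap, and control ASO replicate 4 is the highest point for Ndufa4, Ndufb4 and Ndufab1.

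Of the isoforms of complex IV, the liver held the common ones and few transcripts of the tissue-restricted ones. Cox6a1, Cox6b1, Cox7a2, Cox7b and Cox8a, the common isoforms, were at 38.2 to 670 over all livers. Their counterparts Cox6a2 (heart and muscle), Cox7b2, Cox8b and Cox8c were at 0 in all 9 livers. Cox4i2, the isoform of lung, was above 0 in 2 livers and at most 0.0429 TPM, and Cox6b2, the isoform of testis, was above 0 in 4 and at most 0.202 TPM. Among the common forms, Cox7a2 was about as high in treated livers (70.3 to 129) as in controls (88.0 to 120). The c ring of ATP synthase is coded by a set of genes with the same mature product, of which Atp5g3 (mean level 244) and Atp5g1 (116) were higher than Atp5g2 (17.3). The ranges of Atp5g3 and Atp5g1 over the livers overlapped, and Atp5g2 was below both in every liver.

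**Figure D5:**
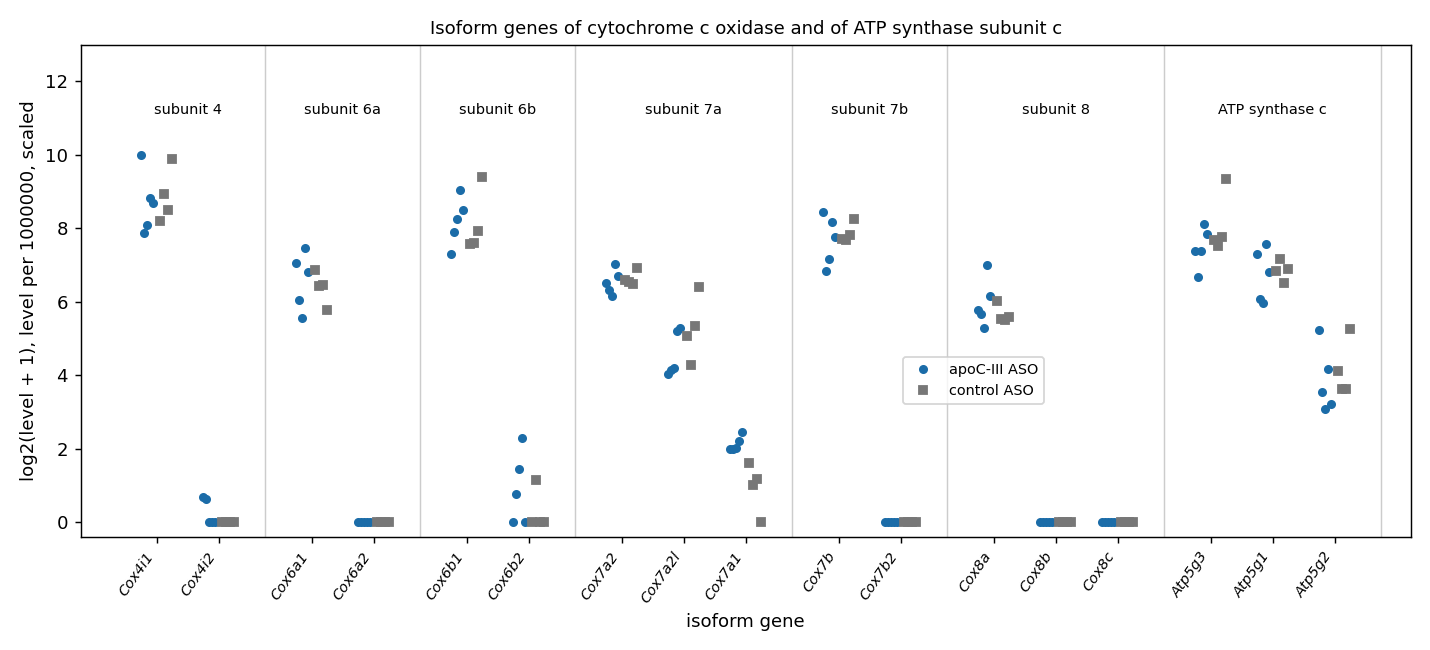
Level of isoform genes of complex IV and of ATP synthase subunit c in each liver (y axis, log2(level + 1), so that 0 means listed at 0), with apoC-III ASO livers as circles and control ASO livers as squares. The common isoforms lie above their tissue-restricted counterparts, of which Cox6a2, Cox7b2, Cox8b and Cox8c are at 0 in all 9 livers.

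Complex V, the ATP synthase, had the largest share of genes below 0 of the 5 complexes, with 16 of 17 genes below 0 and a median log2 fold change of −0.30. The count was 13 of 17 without control replicate 4 (median −0.10) and 12 of 17 without apoC-III ASO replicate 2 (median −0.22). It was 17 of 17 without apoC-III ASO replicate 1, 4 or 5 (medians −0.41, −0.40 and −0.40) or control replicate 1 (median −0.32). In TPM as deposited it was 6 of the 14 with a mean of at least 1, where 29.2% of all genes tested were below 0. On that scale without control replicate 4 it was 15 of 15, where 83.8% of all genes tested were below 0. The summed level was 3009 ± 954 (SD, n = 5) against 3892 ± 1499 (SD, n = 4), and 3152 in the controls without replicate 4.

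Atp5b, the catalytic beta subunit, was at 524, 267, 305, 426 and 457 in treated livers and at 465, 674, 486 and 574 in controls. Of the treated livers, replicate 1 alone was above any control. The log2 fold change was −0.50 (SE 0.25, unadjusted p = 0.0678, adjusted p = 0.883 in limma-trend), and −0.48 without control replicate 4. Atp5a1, the alpha subunit that alternates with it in the catalytic head, was at 233, 102, 151, 263 and 316 against 260, 158, 203 and 417, with a log2 fold change of −0.30 (SE 0.37). Its values overlapped more than those of Atp5b. Atp5h, a subunit of the stator stalk, had the widest gap inside the control group, at 1711 in replicate 4 and 305 to 480 in the others, against 190 to 719 in treated livers. Atp5j2, a small membrane subunit, was the one gene above 0, at 0.06 (SE 0.34), with 120, 63.0, 57.0, 195 and 123 against 83.7, 124, 91.7 and 93.0.

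The other extreme genes of the family were the pair that code for no core subunit. Atp5sl (chromosome 7, 25619414 to 25625551, plus strand) was at 7.90, 17.3, 19.3, 10.2 and 13.7 in treated livers and at 19.7, 12.3, 42.4 and 32.3 in controls, where control replicate 2 lay among the treated livers. Its log2 fold change was −0.84 (SE 0.37, unadjusted p = 0.0414, adjusted p = 0.876 in limma-trend), and the unadjusted p was 0.105 without control replicate 4 and 0.0972 without apoC-III ASO replicate 1. The fold change ran from −0.57 without control replicate 3 (unadjusted p = 0.145 in limma-trend) to −1.14 without control replicate 2 (unadjusted p = 0.00694, adjusted p = 0.866). Atp5s was at 25.5 in apoC-III ASO replicate 1, at 1.75 to 3.38 in the other 4 treated livers and at 5.09, 11.6, 5.39 and 15.1 in controls. Treated replicate 1 was above every control and the other 4 below every control. The log2 fold change of Atp5s was −0.90 (SE 0.62, unadjusted p = 0.173 in limma-trend) and −1.49 without that liver (unadjusted p = 0.00175, adjusted p = 0.872).

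The share of each complex in the summed level depended on where Ndufa4 was counted. Complex I made 29.4% to 30.3% of the summed subunit level in treated livers and 31.4% to 33.7% in controls, without overlap. Complex IV made 19.0% to 23.1% and 16.4% to 18.9%, also without overlap. With Ndufa4 placed in complex IV, where its product is often counted, complex I made 23.8% to 25.5% and 21.9% to 25.9%. Complex IV then made 24.0% to 29.6% and 23.6% to 27.0%, and the groups overlapped in both. Complex V made 29.4% to 31.2% in treated livers and 30.8% to 35.7% in controls, complex III 11.96% to 16.7% and 11.4% to 15.8%, and complex II 3.11% to 5.46% and 3.65% to 4.16%.

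Genes that build or feed the chain were taken from lists written from general knowledge, and limma-trend called 0 of them. Of 46 assembly factors 45 were tested, 23 above and 22 below 0 with a median log2 fold change of 0.01, and 3 were higher and 2 lower at an unadjusted p under 0.05. Pet100, which helps to assemble complex IV, was at 50.4 ± 15.5 (SD, n = 5) against 83.4 ± 15.0 (SD, n = 4), a log2 fold change of −0.75 (unadjusted p = 0.0129, adjusted p = 0.860 in limma-trend). Coa6, a copper chaperone of complex IV, had −0.73 (unadjusted p = 0.0231 in limma-trend), while Cox20, which guards the newly made subunit 2, had 0.64 (unadjusted p = 0.0262). Assembly factors of the same complex thus stood on each side of 0. Of the 17 genes of ubiquinone synthesis, cytochrome c and its partners, 8 were above and 9 below 0, with a median of −0.13 and 0 at an unadjusted p under 0.05. Cycs, cytochrome c itself, was at 157 ± 36.3 (SD, n = 5) against 222 ± 53.3 (SD, n = 4), with −0.50 (unadjusted p = 0.0699 in limma-trend).

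The citric acid cycle genes had 14 of 17 below 0 with a median of −0.21, and Dld, the shared dehydrogenase subunit of the keto acid complexes, was the 1 gene at an unadjusted p under 0.05 (log2 fold change −0.59, unadjusted p = 0.0454, adjusted p = 0.876 in limma-trend). Of 18 genes of protein import and the outer membrane, 15 were below 0 with a median of −0.21 and 0 at an unadjusted p under 0.05. The 15 regulators of mitochondrial gene expression and biogenesis had 9 above and 6 below 0 with a median of 0.10. Without control replicate 4 the genes below 0 were 12 of 17 in the cycle (median −0.12), 10 of 18 in import (median −0.04) and 7 of 15 among the regulators (median 0.00574), and limma-trend gave 0 unadjusted p-values under 0.05. Among the regulators, Gabpa, the DNA-binding subunit of GABP, was at 35.3 ± 14.0 (SD, n = 5) against 53.1 ± 13.2 (SD, n = 4), a log2 fold change of −0.61 (unadjusted p = 0.0568 in limma-trend). Polrmt, the mitochondrial RNA polymerase, was at 30.9 ± 7.78 (SD, n = 5) against 20.6 ± 5.15 (SD, n = 4), with 0.55 (unadjusted p = 0.0549).

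The 13 subunit genes of mitochondrial DNA, measured in TPM as deposited, were all below 0, with a median log2 fold change of −1.10 where all genes tested had 0.11. At an unadjusted p under 0.05 there were 4 of the 13 in limma-trend, against 48 of 4936 genes (0.972%) lower at that level on that scale, and 0 were called. The summed TPM of the 13 genes overlapped, at 2459 to 8067 in treated livers and 6252 to 11847 in controls, with control replicate 4 the highest. Without control replicate 4 the median of all genes tested on that scale was −0.23, and the median of these 13 genes was not computed. Their summed TPM was 4.13 to 23.1 times that of the nuclear subunit genes in treated livers and 9.29 to 71.8 times in controls. Control replicate 4 alone was above the treated range, and its nuclear subunit genes had the lowest summed TPM, 165 against 301 to 882 in the other livers. Control replicates 1 to 3 were at 10.8, 9.29 and 20.3, inside the range of the treated livers. ApoC-III ASO replicate 4 had the lowest ratio.

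Markers of other cell types were measured beside these values. The summed level was 83.5 to 106 against 73.7 to 118 for 5 macrophage markers and 78.5 to 118 against 66.5 to 115 for 5 sinusoidal endothelial markers. For 5 cholangiocyte markers it was 37.9 to 81.3 against 41.0 to 121, and for 5 red blood cell genes 49.8 to 948 against 62.0 to 2182. The highest red blood cell sums were those of replicate 4 in each group, the livers that were high in most subunit genes. Stellate cell markers, 5 in all, summed to 98.7 to 125 in treated livers and 119 to 229 in controls, with 0 higher and, by limma-trend, 2 lower at an unadjusted p under 0.05. Their part in the values of the subunit genes was not tested.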

How the data were processed

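Stranded, ribo-depleted libraries from 5 apoC-III ASO and 4 control ASO livers were sequenced from 1 end. Per gene, the authors deposited TPM values, credited in the submitters' processing notes to kallisto 0.43.1 and GRCm38. The study's methods instead describe read counts from STAR and featureCounts, which were not analysed here. Since TPM holds no depth, the depth per sample is unknown.

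Genes were matched to GENCODE M21 by Ensembl identifier (51719 of 51912). TPM of 21857 nuclear protein-coding genes was rescaled to 1000000 per liver and divided by median-of-ratios factors from the 12263 genes above 0 in all livers. Groups were compared without covariates with limma 3.58.1 in R 4.3.3 (eBayes with trend) on log2(level + 1) in 11968 genes with a mean of at least 1, and p-values were adjusted with the Benjamini-Hochberg method over all of them. Calls needed a change over 1.5-fold at an adjusted p under 0.05. P-values measure the spread between these mice. The steps were tested on simulated data.

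The text names core subunits of each complex, subunit genes at an unadjusted p under 0.05 and the highest and lowest fold change of each complex, and from each list of related genes up to 3 with the smallest p. The values of 1 gene chosen this way are not reported here. Atp5h was named after its values were seen, as were genes given only by level. Members, lists and scaling were chosen with earlier results of these data known. The 27 alternatives changed the scale, the pseudocount, the filter, the limma options, the threshold or the livers used, and 2 of them were added after seeing the data. Same-numbered livers correlated at 0.0280 to 0.190 and differently numbered ones at −0.206 to 0.175. The labels name no pairing, so the numbers were not used as pairs. Whether they follow a batch or an order of processing is not known. Tables and figures were made in Python 3.11.15 with pandas 2.3.3, numpy 2.4.6, matplotlib 3.10.9 and scipy 1.17.1.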

Additional observations from a re-analysis of the deposited data

Results flagged for a closer look

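Of the 54 groups of livers examined among the named subunit genes and the summed levels, 9 held a liver whose gap to its neighbour was large for the range of its group. Chance alone gives about 1 in 20 for independent groups. These groups share the same 9 livers and hold genes that vary together, so the count is a description. Control ASO replicate 4 was the liver in 6 of them. It was at 132 for Ndufab1 (other controls 29.3 to 37.7), 35.5 for Ndufb4 (20.8 to 23.1), 163 for Ndufs1 (68.4 to 81.2), 216 for Ndufv1 (86.5 to 105) and 366 for Uqcrh (106 to 113). The summed level of all subunit genes was 17115 there and 9400 to 10684 in the other controls. ApoC-III ASO replicate 1 was at 25.5 for Atp5s (other treated livers 1.75 to 3.38) and at 1017 for Cox4i1 (232 to 451), and apoC-III ASO replicate 4 was at 28.5 for Ndufb4 (8.02 to 13.3). Control replicate 4 also had the lowest nuclear protein-coding share of TPM, 1.94%, and an array weight of 0.349 in limma against 0.665 to 1.77 in the other livers. The part of that low share in its high subunit levels was not tested.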

How the results depend on the processing

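No subunit gene was called under any of the 27 alternatives, while limma-trend gave 0 to 6 higher and 0 to 11 lower at an unadjusted p under 0.05. Rescaling to protein-coding genes without median-of-ratios factors, which moved the median of all genes tested to 0.41, gave medians of 0.30 for all subunit genes, 0.26 for complex I, 0.53 for complex II and 0.41 for complex IV, and 16.7% below 0. Quantile normalization left 60.3% below 0. Over the fits that left out 1 liver each, the medians ran from −0.30 to −0.0093 for all subunit genes, −0.32 to −0.05 for complex I, −0.17 to 0.25 for complex II, −0.15 to 0.14 for complex III, −0.20 to 0.09 for complex IV and −0.48 to −0.10 for complex V, and the number below 0 from 39 (without apoC-III ASO replicate 2) to 70 (without apoC-III ASO replicate 4).

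Ndufa4, Ndufb4, Ndufab1, Ndufv3, Sdha, Sdhb, Cox7a1, Cox7a2l, Atp5b, Atp5s and Atp5sl kept their direction under each alternative that tested them. The log2 fold changes of the other 10 named genes changed sign. TPM as deposited and rescaling without the factors moved the median of all genes tested to 0.11 and 0.41. TPM as deposited without control replicate 4 moved it to −0.23, and for the other settings the cause was not tested. In TPM as deposited they were 0.0224 for Atp5a1, 0.149 for Cox4i1, 0.154 for Cox5a, 0.0773 for Ndufs1, 0.26 for Ndufv1, 0.155 for Uqcrc1 and 0.0049 for Uqcrh. Without the factors they were 0.18, 0.29, 0.27, 0.26, 0.46, 0.42 and 0.14 for the same genes. Quantile normalization gave 0.0082 for Cox4i1 and 0.0767 for Ndufv1. Array weights gave −0.0683 for Atp5j2, 0.0365 for Cox4i1, 0.0515 for Cox5a, 0.13 for Ndufv1 and −0.0183 for Uqcrfs1. Without control replicate 4 and apoC-III ASO replicate 1 together, values were −0.03 for Atp5j2, 0.05 for Ndufs1, 0.10 for Ndufv1 and 0.21 for Uqcrh, and 51 of 79 subunit genes were below 0. In TPM as deposited without control replicate 4 they were −0.24 for Atp5j2, −0.12 for Uqcr10 and −0.15 for Uqcrfs1. Leaving out each liver in turn gave −0.18 to 0.26 for Atp5j2, −0.51 to 0.15 for Cox4i1, −0.58 to 0.18 for Cox5a, −0.34 to 0.0701 for Ndufs1, −0.18 to 0.27 for Ndufv1, −0.11 to 0.27 for Uqcr10, −0.29 to 0.15 for Uqcrc1, −0.16 to 0.20 for Uqcrfs1 and −0.63 to 0.10 for Uqcrh.

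The labels do not say what same-numbered livers share beyond the number. The replicate block gave 1 gene higher and 11 lower at an unadjusted p under 0.05, 0 called, a median of −0.18, and signs changed to −0.0159 for Atp5j2 and −0.0362 for Uqcrfs1. TPM holds no depth, so what depth limits could not be given.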
